A study of Mus musculus with 4 samples.

Results

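The myogenic regulatory factors, the Mef2 genes and the Pax genes that act above them were followed in C3H10T1/2 cells, a mouse embryonic line with mesenchymal stem cell properties, without and with 5-azacytidine (5-AZA), an inhibitor of DNA methylation. The members were taken by name and comprised 10 genes of 21878: the myogenic factors Myod1, Myf5, Myf6 and Myog, the factors Mef2a, Mef2b, Mef2c and Mef2d, and Pax3 and Pax7. The mRNA table held 55 transcripts for these genes, of 75959 in all, and 44 of the 55 belonged to Mef2 genes. Levels are FPKM (fragments per kilobase of transcript, scaled to the depth of the library), summed over the transcripts of a gene, except where single transcripts are named. The untreated group held 2 samples, replicates 1 and 2, of cells that received no 5-AZA. The 5-AZA group held 2 samples, replicates 101 and 102, which were exposed to 20 μM 5-AZA for 72 hours and then kept for 21 days in fresh growth medium. No genotype was altered in either group. The study mentions that clones of myotube-like cells were picked at some point, and the labels do not say whether these samples came from such clones. Each value is the average of a whole sample, in which fewer cells expressing a gene and less RNA per cell cannot be told apart. The labels give no culture time for the untreated samples. Dose, exposure and any difference in later culture cannot be separated, so the comparison is of the whole treatment with no treatment.

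Myogenic regulatory factors are basic helix-loop-helix proteins that pair with E proteins and bind DNA at the E-box. Myod1 and Myf5 commit progenitors to the skeletal muscle lineage, Myog drives terminal differentiation, and Myf6 is most abundant in mature fibers. MEF2 proteins belong to the MADS-box family, bind an A- and T-rich element, and act together with the myogenic factors on muscle genes. They are held inactive by class II histone deacetylases and are also used outside skeletal muscle, among others in the heart and in neurons. Pax3 and Pax7 are paired-box factors of muscle progenitors, and Pax7 marks satellite cells, the stem cells of adult muscle.

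Promoters of the members are shown because the myogenic and MEF2 factors act on each other's genes through these elements and because the treatment inhibits DNA methylation. RefSeq promoters (assembly GRCm38.p6, 250 bases before to 50 bases after a transcription start) were matched for 7 of the 10 members with 9 starts, and none was matched for Myod1, Myf6 and Pax3. Capitals mark the E-box (CANNTG) and the core of the MEF2 element, searched as TA, then 4 bases that are each A or T, then TA; both patterns read the same on the other strand. The promoter of Myog lies at chr1:134289754-134290053 on the plus strand, that of Mef2a at chr7:67372809-67373108 on the minus strand, the one of the first Mef2c start at chr13:83503784-83504083 on the plus strand and that of Myf5 at chr10:107486085-107486384 on the minus strand.
Myog: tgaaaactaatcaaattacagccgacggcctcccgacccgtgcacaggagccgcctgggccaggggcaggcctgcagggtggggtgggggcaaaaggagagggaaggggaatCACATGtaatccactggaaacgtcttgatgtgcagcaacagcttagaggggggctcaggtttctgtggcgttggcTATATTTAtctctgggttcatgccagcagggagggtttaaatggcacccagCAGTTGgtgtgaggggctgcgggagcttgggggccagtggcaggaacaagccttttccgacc
Mef2c: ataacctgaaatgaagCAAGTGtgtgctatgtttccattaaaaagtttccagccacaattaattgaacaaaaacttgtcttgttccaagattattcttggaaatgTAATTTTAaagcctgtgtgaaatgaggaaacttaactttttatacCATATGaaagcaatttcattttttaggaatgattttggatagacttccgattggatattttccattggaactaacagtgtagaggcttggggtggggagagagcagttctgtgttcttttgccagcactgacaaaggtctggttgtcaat
Mef2a: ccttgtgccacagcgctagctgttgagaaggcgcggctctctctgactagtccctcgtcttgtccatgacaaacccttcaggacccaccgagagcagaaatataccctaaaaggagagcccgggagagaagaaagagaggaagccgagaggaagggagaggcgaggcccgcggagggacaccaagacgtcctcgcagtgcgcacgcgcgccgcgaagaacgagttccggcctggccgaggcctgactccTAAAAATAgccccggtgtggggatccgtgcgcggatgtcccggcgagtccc
Myf5: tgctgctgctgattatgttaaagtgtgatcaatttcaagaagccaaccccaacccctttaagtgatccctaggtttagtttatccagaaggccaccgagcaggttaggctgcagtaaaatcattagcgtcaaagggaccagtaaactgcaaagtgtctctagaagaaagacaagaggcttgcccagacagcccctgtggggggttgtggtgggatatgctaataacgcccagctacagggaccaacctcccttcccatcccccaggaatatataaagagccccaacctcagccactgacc

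In the Myog promoter, an E-box with the letters CACATG began 138 bases and one with CAGTTG 12 bases before the start, and a MEF2 core, TATATTTA, began 63 bases before it. The first Mef2c promoter held 2 E-boxes, at 234 and 100 bases before the start, and a MEF2 core at 145 bases before it. The promoter of Mef2a held a MEF2 core next to the start and no E-box, and the Myf5 window held neither pattern. Of all 32851 promoters of the same length, 72.3% held an E-box, 39.6% held at least 2, 9.32% held a MEF2 core and 7.01% held both, so an E-box alone sets no member apart. CpG, the pair of bases at which mouse DNA is methylated, occurred 9 times in the Myog window, 1 time in the first Mef2c window, 27 times in that of Mef2a and 3 times in that of Myf5, against a median of 7 over all promoters (quartiles 3 and 20). The windows of Mef2d and Pax7 held 24 and 17 CpG and neither pattern. The second Mef2c window held 10 CpG and neither pattern, and the third held 4 CpG, 1 E-box and no MEF2 core. The window of Mef2b held 11 CpG, 2 E-boxes and no MEF2 core. Methylation was not measured in these samples, and a match of letters is a description and not a bound site.

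The 4 libraries were alike in the sum of their mRNA values, from 328410 to 361664 FPKM. The 5-AZA libraries listed fewer genes at 0 (5478 and 5561) than the untreated libraries (7045 and 7111), and 0 of 10 housekeeping genes were at 0 in any library. Mesenchymal markers were present in part. Of 9 listed, Ly6a, Prrx1, Pdgfra, Pdgfrb, Cd44 and Col1a1 were well above 1 FPKM in every sample. The lowest of these values was 20.0 FPKM, for Cd44 in untreated replicate 2. Eng was low, at 1.72 and 1.52 FPKM in the untreated and 2.53 and 3.29 FPKM in the treated samples. Thy1 was under 1 FPKM in the untreated samples. Nt5e was listed at 0 in the untreated samples and at 0.154 and 0.0824 FPKM in the treated samples. Of 13199 genes tested, 1898 (14.4%) were called, that is, had an adjusted p under 0.05 by limma and a change of over 2-fold; 1724 (13.1%) were higher and 174 (1.32%) lower in 5-AZA cells, so that 90.8% of the calls were higher. Under quantile normalization 54.0% of 1927 calls were higher, and the median of all tested genes moved from 0.05 to -0.12 on the log2 scale. With 2 samples a group an exact permutation test of a single gene cannot give a p below 0.333, so the p-values here come from limma, which shares its estimate of spread across all genes, and they measure the spread between what the study calls biological repeats.

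The myogenic factors went apart after 5-AZA. Myog rose from about 0.1 FPKM to the highest level among the members, Myod1 went from 0 to a low level, and Myf5 and Myf6 stayed listed at 0. Among the Mef2 genes, Mef2c rose and Mef2a was moderately higher, while the interval for Mef2d included no change. Pax3 rose to a low level and Pax7 was listed at 0 throughout. In the sequencing data, 6 of the 10 members were tested. Of these 6, 4 were called, all higher (Myod1, Myog, Mef2c and Pax3), where 13.1% of all tested genes were called higher. The called members other than Mef2c, 3 of the 4, passed the limit on low values only through their 5-AZA samples.

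**Figure D1:**
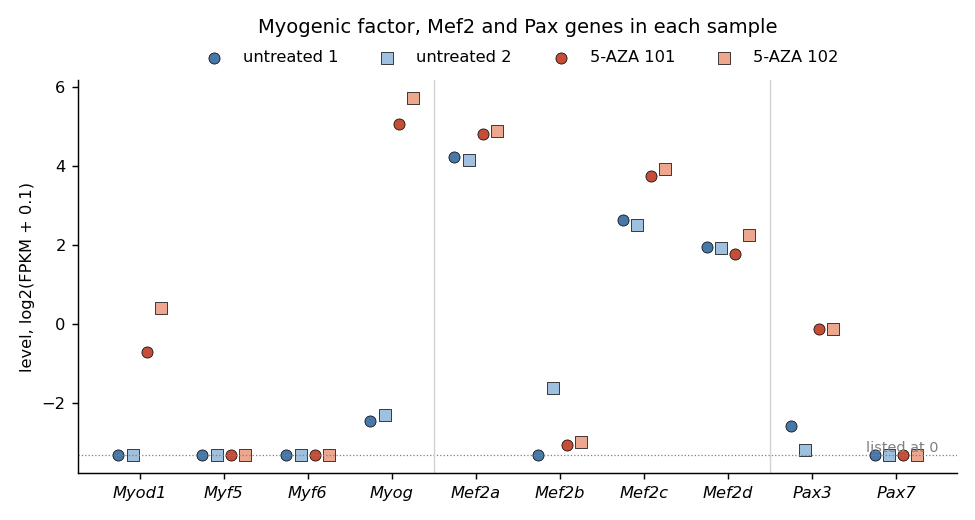
Level of each of the 10 member genes in each sample, as log2(FPKM + 0.1), with untreated samples in blue and 5-AZA samples in red (circles for replicates 1 and 101, squares for replicates 2 and 102). The dotted line marks genes listed at 0; Myog, Mef2a, Mef2c and Pax3 have both 5-AZA samples above both untreated samples, Myod1 leaves the line only after 5-AZA, and Myf5, Myf6 and Pax7 lie on it in all samples.

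Myog (chr1:134290004-134292548), the factor of terminal differentiation, was at 0.0806 and 0.101 FPKM in the untreated samples and at 33.0 and 52.4 FPKM in the 5-AZA samples. Both treated samples lay far above both untreated ones, and the treated pair differed from each other more than the untreated pair did. The means were 0.0908 ± 0.0144 (SD, n = 2) and 42.7 ± 13.7 (SD, n = 2), a ratio of 470.4, and the difference was 7.77 on the log2(FPKM + 0.1) scale (SE 0.25, adjusted p = 3.13e-07, limma). That scale understates the change of genes with low values. In the 5-AZA samples 92.3% and 94.8% of all genes were below Myog, against 43.4% and 44.4% in the untreated samples. The call was kept without each of the 4 libraries in turn.

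Myod1 (chr7:46376474-46379092), the founding member of the family and a factor that can turn fibroblasts into muscle, was listed at 0 in both untreated samples and at 0.512 and 1.23 FPKM in 5-AZA replicates 101 and 102. The groups did not overlap, and no fold is given against a group listed at 0. It passed the test over genes (adjusted p = 0.000944, limma), whereas the same values among single transcripts, where more features share the correction, gave an adjusted p of 0.0977 (limma). With a pseudocount of 1 FPKM its difference was 0.88 on the log2 scale, under 2-fold, and with no limit on low values its adjusted p was 0.0584. Within the treated samples Myog was 64.5 times (replicate 101) and 42.8 times (replicate 102) the level of Myod1 in FPKM. The depth behind these FPKM values is unknown, so the number of reads behind a low level cannot be given.

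Myf5 (chr10:107482908-107486927), the other factor of lineage commitment, and its neighbour Myf6 (chr10:107492848-107494723), the factor of mature fibers, were listed at 0 in all 4 samples, for 2 transcripts and 1 transcript. Both genes were therefore left out of the test. A value of 0 says only that no level was detectable at this depth.

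No annotated lncRNA of the lncRNA table overlapped the genes of Myod1, Myf5, Myf6 or Myog on either strand. Within 20000 bases outside Myog there were 2 lncRNAs. One of them, NONMMUT002677.2, was listed at 0 in both untreated samples and at 0.339 and 0.729 FPKM in the 5-AZA samples, at 16310 bases from the gene (adjusted p = 0.211, limma). The other, NONMMUT076383.1, was at 0.134 FPKM in replicate 101 and at 0 in the other samples. The 3 lncRNAs within that distance of Myod1, 8 near Myf5 and 1 near Myf6 did not reach 0.1 FPKM in any sample.

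The genes whose 4 values of log2(FPKM + 0.1) lay nearest to those of Myog were Ckm, the creatine kinase of muscle, at a distance of 0.53, then Gm14149 at 0.62 and Mb, the oxygen-binding myoglobin, at 0.64. Nearest to Myod1 were Gm33383 at 0.26, Dok7, an adaptor of the neuromuscular junction, at 0.28, and Ghrh, growth hormone releasing hormone, at 0.29. Ckm stood at 0.0888 and 0.0820 FPKM in the untreated and at 43.6 and 65.2 FPKM in the treated samples, and Dok7 at 0.0140 and 0.0130 and at 0.505 and 1.14 FPKM. These are likenesses over 4 samples that fall into 2 groups.

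In the untreated cells Mef2a was the most abundant member, followed by Mef2c and Mef2d, and these neighbours in the order did not overlap. Below them came Mef2b, Myog and Pax3; the values of Mef2b were far apart and spanned those of the other two, and levels this low set no order. In the 5-AZA cells Myog came first, ahead of Mef2a, Mef2c and Mef2d, again with no overlap between neighbours. Myod1 and Pax3 followed and overlapped each other, and Mef2b came last among the members above 0. This order compares levels per length (FPKM).

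Mef2a (chr7:67231163-67376456), the most abundant MEF2 factor here, was at 18.6 and 17.6 FPKM in the untreated samples and at 27.6 and 29.4 FPKM in the 5-AZA samples. Both treated samples were above both untreated samples, as they were for 36.8% of all tested genes. The ratio of the means was 1.57, with a difference of 0.65 on the log2 scale (SE 0.11, 95% interval 0.41 to 0.89, adjusted p = 0.00227, limma), which was under 2-fold and so was not called. At any size of change 18.6% of all tested genes were higher at an adjusted p under 0.05. Without 5-AZA replicate 101 or 102 the adjusted p of Mef2a was 0.0617 and 0.0771.

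Mef2c (chr13:83504017-83667079), which is needed in heart and skeletal muscle, was at 6.04 and 5.53 FPKM in the untreated samples and at 13.3 and 15.0 FPKM in the 5-AZA samples. The groups were far apart for the spread within them. The means were 5.78 ± 0.36 (SD, n = 2) and 14.2 ± 1.18 (SD, n = 2), a 2.45-fold rise, or 1.28 on the log2 scale (SE 0.14, 95% interval 0.97 to 1.59, adjusted p = 0.000193, limma). Without 5-AZA replicate 102 the adjusted p was 0.0632. Mef2a was 3.09 and 3.19 times the level of Mef2c in the untreated samples and 2.07 and 1.96 times in the treated samples.

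Mef2d (chr3:88141941-88172091), the third broadly expressed MEF2 factor, was at 3.75 and 3.69 FPKM in the untreated samples and at 3.30 and 4.63 FPKM in the 5-AZA samples. The untreated values lay between the treated ones. The difference was 0.07 on the log2 scale (95% interval -0.39 to 0.53, adjusted p = 0.847, limma), and its sign turned under median centring and quantile normalization and without 5-AZA replicate 102. Mef2b (chr8:70152761-70167488), known best from B cells, was at 0.224 FPKM in untreated replicate 2, at 1.1e-06 FPKM in untreated replicate 1 and at 0.0193 and 0.0247 FPKM in the 5-AZA samples. Its mean was under the limit of 0.1 FPKM and it was not tested. Summed over the 4 Mef2 genes, the level went from 28.4 and 27.1 FPKM to 44.3 and 49.0 FPKM.

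**Figure D2:**
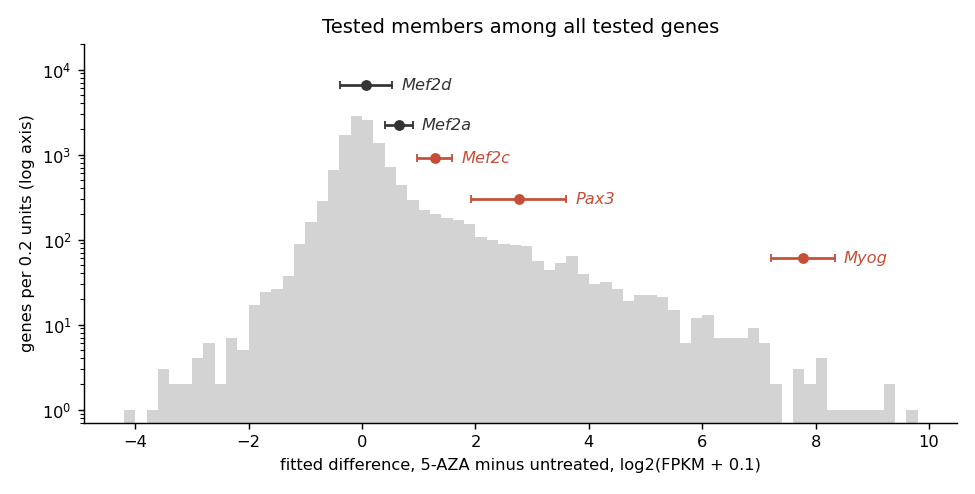
Fitted difference between 5-AZA and untreated cells on the log2(FPKM + 0.1) scale for 5 tested members (points with 95% intervals, red where called; their height has no meaning), above the distribution of the difference over all 13199 tested genes in bins 0.2 wide (grey, logarithmic axis). Mef2d at 0.07 lies in the bulk of the genes, Mef2a at 0.65 at its shoulder, and Mef2c at 1.28, Pax3 at 2.76 and Myog at 7.77 in the right tail; Myod1 is left out because it was listed at 0 in the untreated samples.

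Single transcripts of the Mef2 genes give a finer but less certain view, since reads of shared exons have to be divided among transcripts. Of the 44 transcripts, 31 passed the limit of 0.1 FPKM and 9 had a mean of at least 1 FPKM. Only 1 of the 31 was called, the Mef2c transcript NM_025282.3, where 2.10% of all 35557 transcripts tested were called higher and 0.262% lower. In 15 of the 31 both 5-AZA samples were above both untreated samples (25.6% of all transcripts tested), in 7 they were below (20.9%), and in 9 the groups overlapped.

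**Figure D3:**
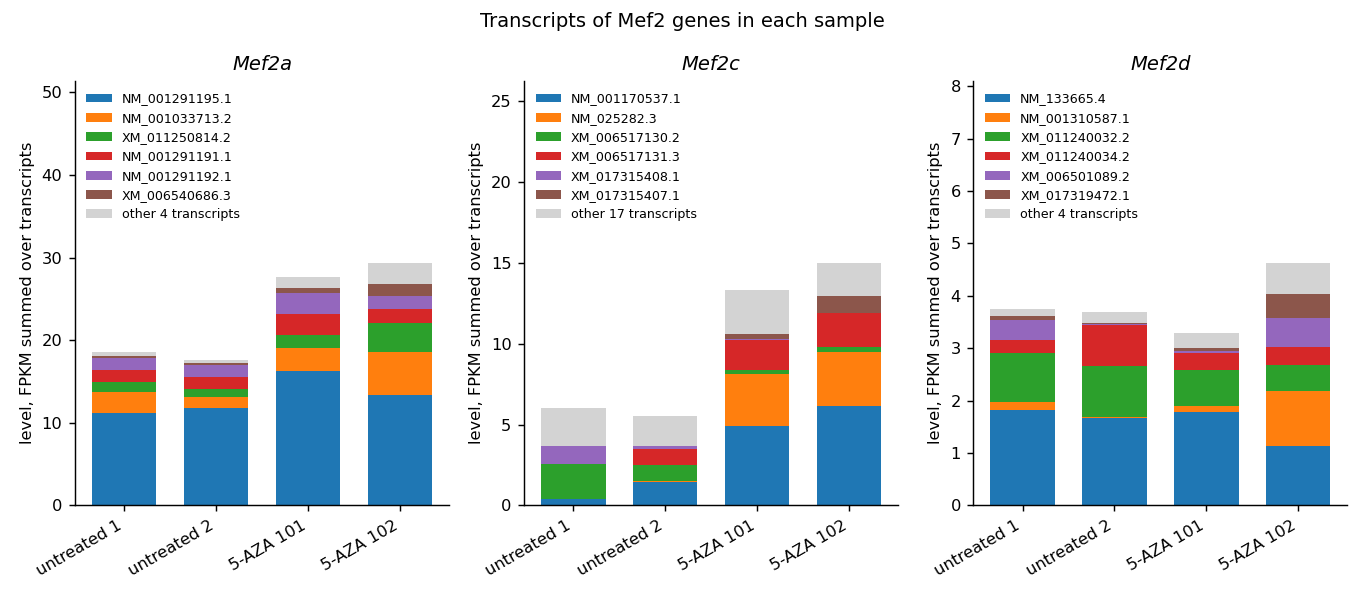
Level of Mef2a, Mef2c and Mef2d in each sample in FPKM, as stacked bars divided by transcript; the 6 transcripts with the highest single values of a gene are coloured and the others are summed in grey. In Mef2a the same transcript, NM_001291195.1, is the largest part of every bar, in Mef2c the transcripts NM_001170537.1 and NM_025282.3 together make up 61.1% and 63.2% of the treated bars and 6.45% and 26.9% of the untreated ones, and in Mef2d the 2 treated bars are divided differently.

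NM_025282.3 (transcript variant 2 of Mef2c) was at 0.0267 and 0.0224 FPKM in the untreated samples and at 3.24 and 3.37 FPKM in the 5-AZA samples. That was 0.44% and 0.41% of the gene's level before and 24.3% and 22.4% after treatment. The difference was 4.77 on the log2 scale (SE 0.51, adjusted p = 0.0140, limma). Without any one of the 4 libraries the adjusted p was between 0.132 and 0.162, with hardly any change in the difference (4.75 to 4.80). The other large transcript, NM_001170537.1 (variant 1), was at 0.363 and 1.46 FPKM in the untreated and at 4.91 and 6.12 FPKM in the treated samples (adjusted p = 0.104, limma). The untreated samples disagreed on its share of the gene, 6.01% and 26.5%, while the treated samples gave 36.8% and 40.8%. XM_006517131.3 (variant X20) was at 0.00128 FPKM in untreated replicate 1 but at 1.00 FPKM in replicate 2, and at 1.89 and 2.09 FPKM in the treated samples.

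Some Mef2c transcripts had lower values after treatment. XM_006517130.2 (variant X13), named after its values were seen because its mean was just under 1 FPKM, was at 2.14 and 0.997 FPKM in the untreated and at 0.228 and 0.327 FPKM in the treated samples (log2 difference -2.07, adjusted p = 0.173, limma). Its share of the gene was 35.5% and 18.0% before and 1.71% and 2.18% after. Among the 14 tested Mef2c transcripts, both treated samples were above the untreated ones in 7, below in 5 and overlapping in 2. For NM_001170537.1, XM_006517131.3 and XM_006517130.2 the untreated samples, which were close in the level of the whole gene, differed more in the share of the gene than the treated samples did.

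In Mef2a the main transcript NM_001291195.1 (variant 4) was at 11.2 and 11.7 FPKM before and at 16.2 and 13.4 FPKM after treatment (adjusted p = 0.359, limma), or 60.3%, 66.6%, 58.6% and 45.7% of the gene. NM_001033713.2 (variant 1) was at 2.51 and 1.38 and at 2.85 and 5.20 FPKM, and XM_011250814.2 (variant X3) at 1.18 and 1.00 and at 1.62 and 3.51 FPKM. In both, replicate 102 stood above all other samples. NM_001291191.1 and NM_001291192.1 (variants 2 and 3) carried identical values, 1.43 and 1.42 FPKM before and 2.49 and 1.64 FPKM after, and cannot be told apart. None of the 10 Mef2a transcripts was called, the smallest adjusted p being 0.123 (limma; 2 at an unadjusted p under 0.05). Of these 10, 7 had both treated samples above both untreated ones.

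In Mef2d the main transcript NM_133665.4 (variant 2) was at 1.81 and 1.67 FPKM before and at 1.78 and 1.13 FPKM after treatment (adjusted p = 0.786, limma). NM_001310587.1 (variant 1), named after its values were seen, was at 1.05 FPKM in 5-AZA replicate 102 and at 0.125 FPKM in replicate 101, against 0.152 and 0.0139 FPKM in the untreated samples. Replicate 102 alone stood high. None of the 7 tested Mef2d transcripts was called (smallest adjusted p = 0.518, limma; 0 at an unadjusted p under 0.05).

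Several noncoding transcripts were listed within Mef2 genes, on a coordinate system in which the deposited loci fitted GRCm38 although the submitters' processing notes name mm9. Of 27 lncRNAs that overlapped a member, 8 lay in Mef2a, 11 in Mef2c, 5 in Mef2d and 3 in Pax3. Of the 13 tested, 0 were called by limma and 1, in Mef2a, had an unadjusted p under 0.05, where 1.14% of all 24075 tested lncRNAs were called. In Mef2a, NONMMUT061937.2 (chr7:67231239-67234042), at the 3′ end of the gene and on its strand, was at 8.80 and 9.58 FPKM in the untreated and at 15.5 and 13.1 FPKM in the treated samples (log2 difference 0.63, adjusted p = 0.330, limma). Its difference was close to that of the Mef2a mRNA, whose 3′ end it overlaps.

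The other tested lncRNAs inside Mef2a were all of 1 exon and on the strand of the gene. NONMMUT061943.2 was at 6.87 and 6.38 FPKM before and at 8.32 and 6.34 FPKM after treatment, and NONMMUT061939.2 at 5.47 and 5.29 and at 7.25 and 5.03 FPKM. NONMMUT061942.2 and NONMMUT061945.2 overlapped between the groups as well, and NONMMUT061947.2 was at 1.71 and 1.89 and at 1.40 and 1.42 FPKM. Their log2 differences ranged from -0.33 to 0.16, with adjusted p-values of 0.607 to 0.907 (limma), against 0.65 for the mRNA.

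In Mef2c, NONMMUT018495.2 (chr13:83665272-83667077), which ends within the 3′ end of the gene, was at 3.69 FPKM in untreated replicate 1 and at 0.00292, 6.95e-06 and 0.000333 FPKM in untreated replicate 2 and the treated samples. That single high value came from the library in which NM_001170537.1 and XM_006517131.3 were lowest and XM_006517130.2 highest; its part in the division of Mef2c reads was not tested. The other 5 tested lncRNAs inside Mef2c were between 0.155 and 1.64 FPKM and overlapped between the groups.

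**Figure D4:**
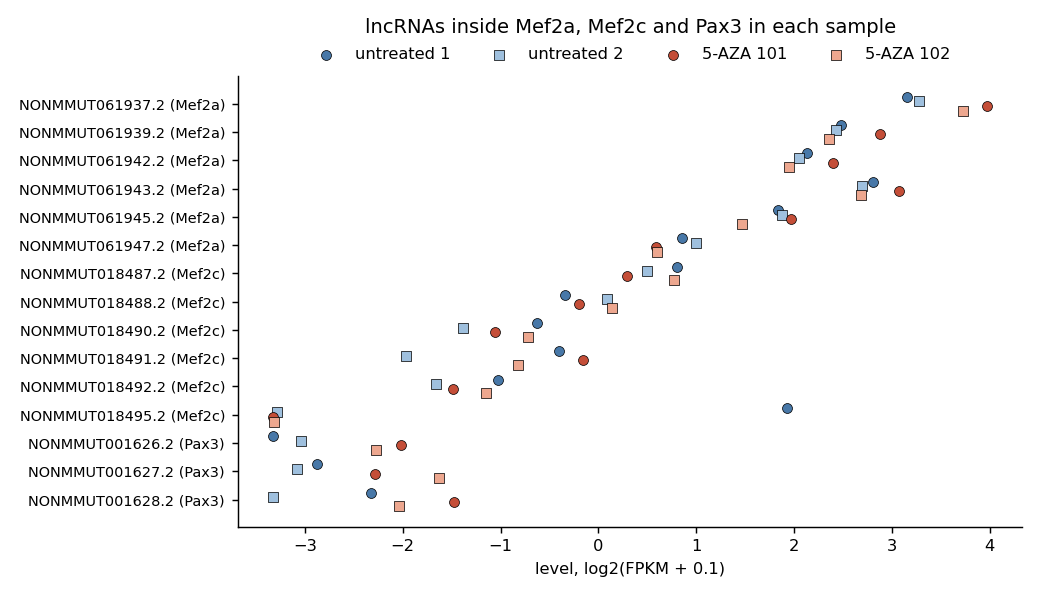
Level of the lncRNAs inside Mef2a, Mef2c and Pax3 that exceeded 0.1 FPKM in any sample, as log2(FPKM + 0.1), by sample (untreated in blue, 5-AZA in red). NONMMUT061937.2 at the end of Mef2a has both treated samples on the right, the others inside Mef2a and Mef2c mostly overlap, and NONMMUT018495.2 is high only in untreated replicate 1. The 3 within Pax3 are at low levels in all samples, with both treated samples above both untreated ones.

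Circular RNAs, spliced into rings from exons of a host gene, were listed for Mef2a, Mef2c and Mef2d, with 1 each. That of Mef2a (chr7:67264865-67268400) was at 0.0538 and 0.0321 RPM (back-splice reads scaled to the depth of the library) in the untreated samples and at 0 and 0.0745 RPM in the 5-AZA samples, so the groups overlapped. Those of Mef2c and Mef2d were found only in 5-AZA replicate 101, at 0.0215 and 0.0753 RPM. None was called, and of 1360 circRNAs tested by limma 0 (0%) were called, with 251 at an unadjusted p under 0.05.

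Pax3 (chr1:78101267-78197136), a factor of embryonic muscle progenitors that is also used in the neural crest, was at 0.0661 and 0.00865 FPKM in the untreated samples and at 0.808 and 0.812 FPKM in the 5-AZA samples. The treated samples were nearly equal and both lay above the untreated ones. The difference was 2.76 on the log2 scale (SE 0.37, adjusted p = 0.000713, limma). Without 5-AZA replicate 101 or 102 the adjusted p was 0.0807 and 0.0882, and with a pseudocount of 1 FPKM the difference was 0.80, under 2-fold. Of the treated level, 99.1% in replicate 101 and 85.4% in replicate 102 came from NM_008781.4 (variant 1), at 0.801 and 0.693 FPKM in the treated and 0.000114 and 0.00410 FPKM in the untreated samples (adjusted p = 0.0794, limma). The other transcript, NM_001159520.1 (variant 2), was at 0.0660 and 0.00455 FPKM in the untreated and at 0.00722 and 0.119 FPKM in the treated samples, which overlapped, and held 99.8% and 52.6% of the untreated level.

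The 3 lncRNAs within Pax3 lay on the strand of the gene, and 1 of them was tested and not called. NONMMUT001628.2 was at 0.0990 FPKM in untreated replicate 1, 0 in untreated replicate 2, and 0.260 and 0.144 FPKM in the treated samples (adjusted p = 0.560, limma). NONMMUT001626.2 and NONMMUT001627.2 stayed under 0.25 FPKM and were not tested. The former was at 0 and 0.0214 FPKM in the untreated and at 0.147 and 0.107 FPKM in the treated samples. The latter was at 0.0357 and 0.0182 and at 0.106 and 0.223 FPKM. In each of the 3 lncRNAs both treated samples were above both untreated ones, at levels near the limit on low values. Pax7 (chr4:139737059-139833530) was listed at 0 in all 4 samples for each of its 4 transcripts, and 5 lncRNAs within 20000 bases of it did not reach 0.1 FPKM.

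The genes around the members were read from lists drawn up by role, which were chosen with earlier results of these data known. Among 18 upstream and partner factors, 10 were tested, 1 was higher and 0 were lower. The median log2 difference of the list was 0.04 against 0.05 over all tested genes, of which 13.1% were called higher. The one that rose was Meox1, a homeobox factor of the somite, at 0.773 and 0.793 FPKM before and at 2.86 and 3.91 FPKM after treatment (log2 difference 1.96, adjusted p = 0.000421, limma; 0.0598 without 5-AZA replicate 102). The E protein genes, whose products pair with the myogenic factors, were abundant before treatment and changed by less than 2-fold: Tcf12 was at 21.2 and 20.0 FPKM and then at 27.9 and 26.6 FPKM, and Tcf3 at 24.2 and 19.6 FPKM and then at 14.6 and 16.8 FPKM. Msc, Tcf21 and Eya2 were listed at 0 throughout.

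Of 18 inhibitors of myogenic factors, 17 were tested, 3 were higher and 0 lower, with a median of 0.34. That is 17.6% called higher, near the 13.1% of all tested genes, whose median was 0.05. Of those called, Heyl and Mstn passed the limit on low values only through their treated samples. Heyl, a target of Notch signalling, was at 0.0221 and 0.0284 FPKM before and at 1.51 and 2.44 FPKM after treatment (log2 difference 4.01, adjusted p = 5.47e-05, limma). Mstn, the secreted brake on muscle growth that is made by muscle itself, was listed at 0 in both untreated samples and at 0.397 and 0.625 FPKM in the treated samples. Hes1, another Notch target, was at 3.31 and 1.62 and at 7.45 and 8.22 FPKM (adjusted p = 0.00281, limma; 0.206 and 0.233 without 5-AZA replicate 101 or 102). The Id genes, whose products hold E proteins away from the myogenic factors, were at unequal levels that did not pass the test between the groups: Id4 was at 0.120 and 0.0848 FPKM and then at 0.173 and 0.321 FPKM, Id1 was at 51.8 and 41.3 FPKM and then at 41.0 and 40.2 FPKM, and Id3 at 68.4 and 56.6 FPKM and then at 63.7 and 73.7 FPKM.

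Of 18 MEF2 cofactors and class II deacetylases, 15 were tested, 1 was higher and 0 lower, with a median of -0.03. That is 6.67% called higher, against 13.1% of all tested genes. Smyd1, a methyltransferase of striated muscle, rose from 0.0218 and 0.0957 FPKM to 7.28 and 11.4 FPKM (log2 difference 5.90, adjusted p = 5.32e-06, limma). Smyd1 passed the limit on low values only through its treated samples. Hdac4, which binds and represses MEF2 proteins, was at 2.39 and 1.85 and at 3.81 and 4.35 FPKM (log2 difference 0.92, adjusted p = 0.0110, limma), under 2-fold. Hdac5 was at 11.8 and 12.8 and at 9.31 and 9.93 FPKM, and Hdac7 at 5.93 and 6.22 and at 5.88 and 5.98 FPKM, neither past the test.

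The list drawn up as early targets of the myogenic factors was the one that moved most. The treated samples come from a single time, so the name of the list does not show when its genes rose. Of 18 genes 17 were tested, 16 were higher and 0 lower, with a median of 4.91, where 13.1% of all tested genes were called higher. Of those called, all but Cdkn1a, Des, Klhl41 and Musk passed the limit on low values only through their treated samples. Actc1, the actin of embryonic striated muscle, went from 0.0515 and 0.0728 FPKM to 61.6 and 89.2 FPKM, the largest log2 difference of the list (8.84, adjusted p = 1.66e-07, limma). Ckm, given above, followed at 8.17. The fusion genes Tmem8c (myomaker) and Gm7325 (myomixer) were at most at 0.115 and 0.0482 FPKM before treatment and at 13.0 and 22.8 and at 8.84 and 12.5 FPKM after it; the adjusted p of Tmem8c was 0.0549 and 0.0683 without 5-AZA replicate 101 or 102. Rb1, the cell cycle brake, was tested and not called.

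Of 16 satellite cell genes, 12 were tested, 8 were higher and 0 lower, with a median of 1.38. That is 66.7% called higher, against 13.1% of all tested genes. The 4 with the largest log2 differences were Itga7, the laminin receptor of muscle, at 3.94, Spry1, an inhibitor of growth factor signalling, at 3.92, the adhesion molecule Ncam1 at 2.47 and the growth factor Hgf at 2.34. Itga7 went from 0.527 and 0.391 FPKM to 7.12 and 9.92 FPKM. Of the other called genes, Cxcr4, Met and Peg3 lost their calls with a pseudocount of 1 FPKM. They also lost them with no limit on low values and under quantile normalization. Cxcr4 passed the limit on low values only through its treated samples. The call of Spry1 was lost without 5-AZA replicate 101 or 102 (adjusted p = 0.0880 and 0.0963, limma). Calcr and Chodl were listed at 0 in all samples, as Pax7 was. Over these 5 lists together 29 genes were higher, and 19 and 16 were higher without 5-AZA replicate 101 or 102.

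**Figure D5:**
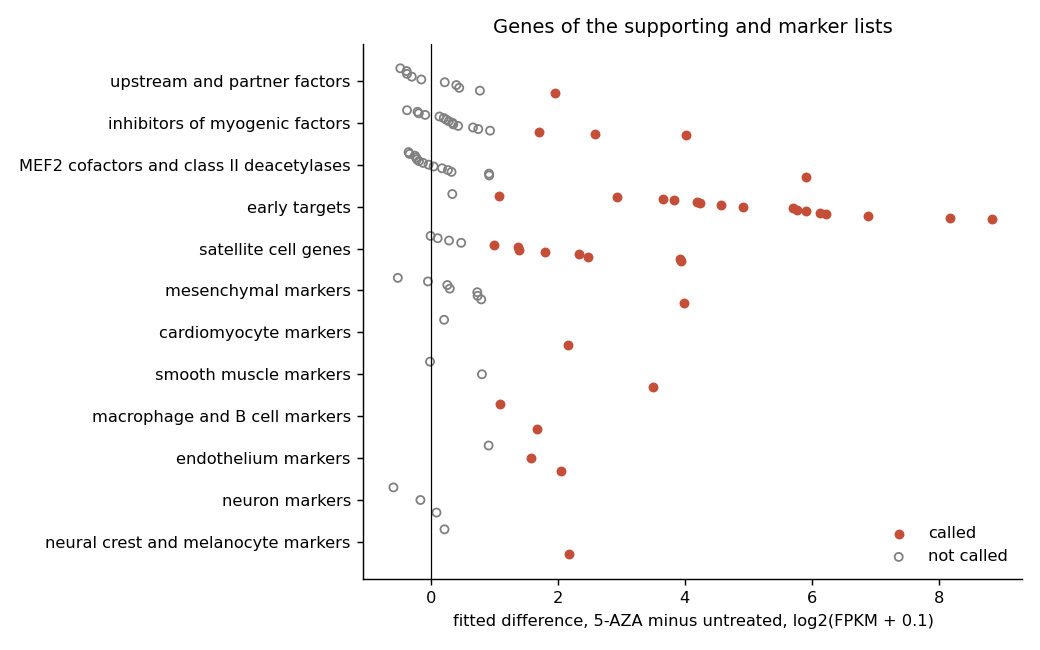
Fitted difference between 5-AZA and untreated cells on the log2(FPKM + 0.1) scale for each tested gene of the 5 lists around the members and of the marker lists of other cell types; filled red points were called and open grey points were not. The list of early targets reaches from 0.34 to 8.84 with 16 of 17 called, while partners, inhibitors and MEF2 cofactors lie mostly within 1 unit of 0. Most of these 16 passed the limit on low values only through their treated samples.

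Because Mef2 and Pax genes are also active outside skeletal muscle, markers of other cells that use them were read in the same samples; their part in the levels of Mef2c and Pax3 was not tested. Of 8 cardiomyocyte markers, Tbx5, Hand2, Nppa and Myl7 were listed at 0 throughout. Gata4 was at 2.13 and 2.17 and at 2.02 and 3.09 FPKM, and Myh6 rose to 0.309 and 0.385 FPKM. By qRT-PCR the study instead reported GATA-4 as increased and α-MHC (Myh6) as decreased or unchanged. The summed level of the list was 2.13 to 2.27 FPKM in the untreated and 2.37 to 3.48 FPKM in the treated samples. Of 5 neural crest and melanocyte markers, Tfap2b was at 0, Sox10 rose to 0.204 and 0.570 FPKM, and the list summed to 2.28 to 2.54 and to 3.04 to 3.47 FPKM. Most of that sum was Mitf, at 2.28 and 2.52 and at 2.84 and 2.76 FPKM, and Foxd3 and Dct were not tested. The smooth muscle list summed to 9.41 to 10.3 and to 12.2 to 14.1 FPKM with 1 of 3 tested markers higher (Cnn1, at 1.23 and 1.07 FPKM after treatment), and the neuron list to 9.17 to 9.51 and to 9.28 to 9.55 FPKM with 0 of 3 called by limma and 1 at an unadjusted p under 0.05. Most of the neuron sum was Map2, at 8.22 and 7.89 FPKM before and at 8.47 and 8.69 FPKM after treatment. The macrophage and B cell list summed to 1.2 to 1.5 and to 2.69 to 3.90 FPKM, with 2 of 2 tested markers higher (Cd68 and Cd79a) and Aif1 at 0, and the endothelium list to 0.296 to 0.536 and to 1.79 FPKM in both treated samples, with 2 of 3 higher (Cdh5 and Tek) and Kdr and Tie1 at 0. Calls of these low markers were unsteady: without 5-AZA replicate 102 the adjusted p was 0.207 for Cd68 and 0.167 for Tek, without replicate 101 it was 0.102 and 0.133, and without untreated replicate 1 or 2 it was 0.0966 and 0.0989 for Cd79a (limma). Without untreated replicate 1 the difference of Cd68 was 0.94, under 2-fold. Of the called markers, Myh6, Sox10, Cnn1, Cd79a and Cdh5 passed the limit on low values only through their treated samples. Only 2 of 6 macrophage and B cell markers and 3 of 5 endothelium markers were tested, and 13.1% of all tested genes were called higher. Of the 8 mesenchymal markers tested, 1 was higher, Thy1, from 0.578 and 0.785 FPKM to 10.4 and 14.2 FPKM.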

How the data were processed

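Total RNA of 2 untreated and 2 5-AZA samples was depleted of ribosomal RNA and made into stranded libraries. Per the labels, the authors used Trimmomatic, HISAT2, Bowtie2 2.2.9 and eXpress 1.5.1, and deposited FPKM per transcript for mRNAs and lncRNAs and RPM per circRNA; read depth is not known from these values. The notes name mm9, but 86.5% of 4047 circRNA host transcripts lay inside the GRCm38.p6 gene of that name (tolerance 1 base), so RefSeq GRCm38.p6 positions were used. Annotation columns gave gene names and positions. FPKM were summed per gene, and those averaging 0.1 FPKM or more (circRNAs: detected in at least 2 samples) were fitted as log2(FPKM + 0.1) with limma 3.58.1 in R 4.3.3 (trended eBayes, no covariates) and adjusted by Benjamini-Hochberg over all features; calls needed an adjusted p under 0.05 and over 2-fold. For circRNAs the smallest RPM above 0 was added before the log. No count test was run, since no counts were used here. The fit was tested on simulated data. Named were all members, Mef2 transcripts with a mean of at least 1 FPKM, circRNAs of members, up to 4 called genes per list, and the 3 genes nearest to Myod1 and Myog by Euclidean distance; other names were chosen after their values were seen. Mymk and Mymx were matched through RefSeq synonyms as Tmem8c and Gm7325. The members and lists were chosen with earlier results of these data known. Alternatives were other pseudocounts, limits, normalizations and leaving out each sample.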

Additional observations from a re-analysis of the deposited data

How the results depend on the processing

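No paired analysis was possible because the groups share no replicate numbers. The count of 1898 genes called was 961 with a pseudocount of 1 FPKM, 1262 with no limit on low values, 967 with a mean of at least 1 FPKM and 3232 at any size of change (an alternative chosen after seeing the data), and 851 to 1797 without 1 sample (1027 without 5-AZA replicate 101, 851 without 102). The count of 838 transcripts called was 0 with no limit on low values (8254 at an unadjusted p under 0.05, limma) and 0 to 57 without 1 sample. The 4 members called became 2 with a pseudocount of 1 FPKM or a mean of at least 1 FPKM (Myog and Mef2c) and 2 to 4 without 1 sample (Myod1 and Myog without 5-AZA replicate 102). Genes called higher in the 5 lists went from 29 to 16 to 30 without 1 sample, again chosen after seeing the data. The circRNAs called were 3 when detection in any sample sufficed and 8 when it was required in all 4 samples, instead of 0. The sign of the Mef2d difference turned to -0.037 with median centring and -0.13 with quantile normalization, and it ranged from -0.17 to 0.31 without 1 sample; that of its transcript NM_133665.4 ranged from -0.58 to 0.032. The cause was not tested. Over the 6 tested members, 61 of 70 alternative values kept their direction and whether the member was called, 6 lost the call and 3 turned in sign; no value of a called member turned. FPKM hide the reads behind low values, so levels under 0.1 FPKM set no order.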
